A study of Homo sapiens with 18 samples.

Results

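The genes described here are FOS, FOSL1, JUN and JUNB, which encode subunits of the AP-1 transcription factor, EGR1 and IER3, which encode other immediate early products, and DUSP1, DUSP4, DUSP5 and DUSP6, which encode phosphatases of MAP kinases. They were taken by gene symbol from a list that was drawn up with the siASAP1 against siCtrl differences of these same libraries known, and were thus chosen by measured values of that contrast. That difference is therefore given for them as a description, and counts of them past a limit are set beside the share of all probes with nothing read from them. The 10 genes were read by 13 of the 21111 probes, which carry 19289 gene symbols in all. JUNB, DUSP1 and DUSP4 had 2 probes each, told apart below by the number in the probe's name, and the other 7 genes had 1. A probe covers only a small part of its transcript and is listed without its sequence, so levels are compared between samples and not between genes.

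The libraries came from TempO-Seq, a targeted assay in which ligated detector oligonucleotides are counted by sequencing, in BT549, Hs578T and SUM149PT. These are established human triple-negative breast cancer (TNBC) cell lines, of which the study calls BT549 and Hs578T mesenchymal-like and SUM149PT basal-like. Cells of each line were transfected with 50 nM of siASAP1, a SMARTpool of siRNAs against the Arf GTPase-activating protein ASAP1, or of siCtrl, and were lysed after 72 h. The control, siCtrl, was a mixture of many siRNAs against kinases. No untransfected cells were analysed here, all 18 libraries come from transfected cells, and each line stands for 1 tumor. Each of the 6 combinations of cell line and siRNA had 3 libraries, which the study describes as biological triplicates.

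The libraries held 4.63 to 12.5 M reads (median 6.63 M). ASAP1 was read at 944 to 1107 normalized counts in siCtrl and 367, 730 and 783 in siASAP1 libraries (replicates 1, 2 and 3) of BT549. The reduction in BT549 siASAP1 replicates 2 and 3 was thus smaller than in replicate 1. In Hs578T it was read at 1414 to 2697 against 782 to 1261, and in SUM149PT at 189, 1087 and 1314 against 184 to 468. The value of 189 belongs to the library labelled SUM149PT siCtrl replicate 2, which lay with the siASAP1 libraries in its ASAP1 level and also had the lowest correlation with its replicates (Pearson r = 0.773 with the mean of the other 2, against 0.846 to 0.961 in the other libraries, across probes). Each SUM149PT Log2 FC named below is therefore given with and without it. Among the BT549 libraries, siASAP1 replicate 1 had the lowest r (0.876). The epithelial marker EPCAM was read at 18650.2 to 36679 in SUM149PT and at no more than 77.8 in the other lines, and the main probe of VIM, encoding the mesenchymal filament vimentin, at 27346 or more in BT549 and Hs578T and at no more than 2965 in SUM149PT. CDH2, also a mesenchymal marker, did not separate the lines in this way. It was read at 253 to 691 in BT549, 3222 to 5543 in Hs578T and 1434 to 2325 in SUM149PT. The basal keratin KRT17 was high in SUM149PT (647 to 5514), but KRT5 (0 to 64.1) and KRT14 (0 to 7.69) were low there, and ZEB1, which mesenchymal cells express, was at or near 0 in every line. The leukocyte genes PTPRC and CD3E were also at or near 0, while the endothelial gene PECAM1 reached 103 by 1 of its 2 probes in SUM149PT. Of the receptors that TNBC lacks, PGR was at or near 0, 1 of 2 ESR1 probes was read at 24.3 to 191 in SUM149PT, and ERBB2 was read at no more than 138 in any line. Some markers moved with siASAP1. In SUM149PT the main VIM probe was lower by the DEG limits (1994 to 2965 in siCtrl and 791 to 1040 in siASAP1), and CDH1 (87.9 to 114 and 210 to 263) and KRT17 (647 to 1941 and 2420 to 5514) were higher, which makes 1 of 2 mesenchymal probes tested lower and 2 of 4 epithelial and basal probes higher. In Hs578T, EPCAM was higher (10.6 to 23.6 and 25.4 to 77.8). The summed mesenchymal markers (VIM, ZEB1 and CDH2) were at 27831 to 36579.5 in siCtrl and 34179 to 88331 in siASAP1 libraries of BT549, at 111960 to 224395 and 97887 to 131278 in Hs578T, and at 3457 to 5074 and 2225 to 3280.1 in SUM149PT. The part of these markers in the results was not tested.

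AP-1 is a dimer of a JUN protein with a FOS or another JUN protein, and it binds a short palindrome in promoters and enhancers. Growth factors, stress and cytokines activate ERK and the other MAP kinases, which within minutes switch on immediate early genes such as FOS, JUN and EGR1 without new protein synthesis. The dual-specificity phosphatases encoded by DUSP genes remove phosphates from MAP kinases, and because several DUSP genes are themselves induced by MAP kinase signalling they close a negative feedback loop. In many basal-like and mesenchymal breast cancer cells, FOSL1 is a prominent AP-1 subunit.

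In GRCh38, with the GENCODE release 29 annotation, all 10 genes are protein coding. FOS lies on chromosome 14 (75278774 to 75282230, plus strand), FOSL1 on chromosome 11 (65892049 to 65900573, minus strand), JUN on chromosome 1 (58780788 to 58784327, minus strand) and JUNB on chromosome 19 (12791496 to 12793315, plus strand). EGR1 lies on chromosome 5 (138465490 to 138469315, plus strand) and IER3 on chromosome 6 (30743199 to 30744554, minus strand). DUSP1 lies on chromosome 5 (172768090 to 172771195, minus strand), DUSP5 on chromosome 10 (110497838 to 110511544, plus strand) and DUSP6 on chromosome 12 (89347232 to 89353271, minus strand). Most of these genes are short, above all IER3 and JUNB, which span 1.36 and 1.82 kb.

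Promoters of 6 of the 10 genes (FOS, JUN, JUNB, EGR1, DUSP1 and DUSP6) were found in a RefSeq table on GRCh38.p14 that holds 250 bases before and 50 after each gene's start. They were searched on both strands for the AP-1 site TGANTCA, the CRE site TGACGTCA, the JUN promoter's variant TGACATCA, the serum response CArG box, the EGR1 site GCGNGGGCG and the ETS site CCGGAAGT. The 3 promoters with a match are shown 5′ to 3′ on the strand of the gene, with the matches in capitals, because each holds another kind of known response element. They are EGR1 at chr5:138465229-138465528 (plus strand), JUN at chr1:58783998-58784297 (minus strand) and DUSP1 at chr5:172771146-172771445 (minus strand).
EGR1: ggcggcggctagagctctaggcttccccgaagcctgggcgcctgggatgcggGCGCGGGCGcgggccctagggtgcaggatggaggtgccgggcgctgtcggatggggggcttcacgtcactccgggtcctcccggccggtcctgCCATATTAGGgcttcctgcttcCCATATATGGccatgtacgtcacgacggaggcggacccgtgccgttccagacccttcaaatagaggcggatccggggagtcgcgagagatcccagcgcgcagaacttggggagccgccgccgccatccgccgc
JUN: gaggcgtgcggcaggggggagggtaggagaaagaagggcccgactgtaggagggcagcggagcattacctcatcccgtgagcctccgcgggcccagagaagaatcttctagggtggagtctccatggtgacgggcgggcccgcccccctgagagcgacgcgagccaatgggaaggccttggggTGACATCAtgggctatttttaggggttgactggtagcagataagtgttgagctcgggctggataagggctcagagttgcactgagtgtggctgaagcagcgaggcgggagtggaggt
DUSP1: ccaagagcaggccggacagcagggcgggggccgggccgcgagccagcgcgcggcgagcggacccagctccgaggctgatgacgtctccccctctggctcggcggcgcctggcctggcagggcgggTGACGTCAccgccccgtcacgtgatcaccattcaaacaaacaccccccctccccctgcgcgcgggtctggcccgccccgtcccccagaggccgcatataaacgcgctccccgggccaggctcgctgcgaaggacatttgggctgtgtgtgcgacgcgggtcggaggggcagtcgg
Positions are counted from the RefSeq start, which is the GENCODE start for DUSP1, lies 11 bases upstream of it for EGR1 and 280 bases downstream of it for JUN, so that the JUN window lies inside the GENCODE gene. The EGR1 promoter held CArG boxes, which serum response factor binds, at 105 to 96 and at 83 to 74 bases before the start, and GCGCGGGCG, the site that EGR1 protein itself binds, at 198 to 190. The JUN promoter held TGACATCA at 67 to 60 bases before the start, and the DUSP1 promoter held TGACGTCA at 125 to 118. TGACATCA was searched as the JUN promoter's own variant, so its match there was fixed in advance and only its position is given. Of 35116 promoters in the table, 1.29% held a CArG box, 9.43% GCGNGGGCG, 2.61% TGACATCA and 1.85% TGACGTCA. The AP-1 site (7.71% of all promoters) and the ETS site (4.14%) matched in none of the 6 windows. Those of FOS, JUNB and DUSP6 held no match to any of these letters. Sequence further from the start was not searched, so a site outside the window would be missed. These matches are a description of sequence, since the libraries measure RNA and not binding.

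Every siASAP1 library lay above every siCtrl library for 7 of 11 probes in BT549 (7.35% of all probes) and 4 of 10 in SUM149PT (8.87%). In Hs578T this held for 0 of 10 (6.31%). The genes were listed with this contrast known, so nothing is read from these counts, and the lines are not ranked by them. Single controls also shaped them, since IER3 in Hs578T and SUM149PT, DUSP1 in Hs578T and JUNB (probe 3476) in SUM149PT overlapped through siCtrl replicate 2. In BT549 the DUSP6 probe lay 2.66 ± 0.71 (SE) higher on the log2 scale, IER3 1.70 ± 0.62, JUN 1.65 ± 0.73, DUSP5 1.55 ± 0.53, DUSP4 (probe 27145) 1.42 ± 0.33 and FOSL1 1.33 ± 0.57. In SUM149PT, FOSL1 lay 1.50 ± 0.46 and DUSP4 (probe 1990) 3.05 ± 0.73 higher (1.80 and 3.74 without siCtrl replicate 2). EGR1 in BT549 and SUM149PT and JUNB (probe 3476) in BT549 had a negative Log2 FC, with overlapping groups. The values in every library follow, as normalized counts (reads divided by the library's size factor) in the order of replicates 1, 2 and 3. A Log2 FC is the difference of the means of log2(normalized count + 1), siASAP1 minus siCtrl, with its SE from limma and n = 3 libraries in each group, and it understates the change of genes with few reads. In such bulk samples, more RNA per cell and more cells that express a gene cannot be told apart.

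**Figure D1:**
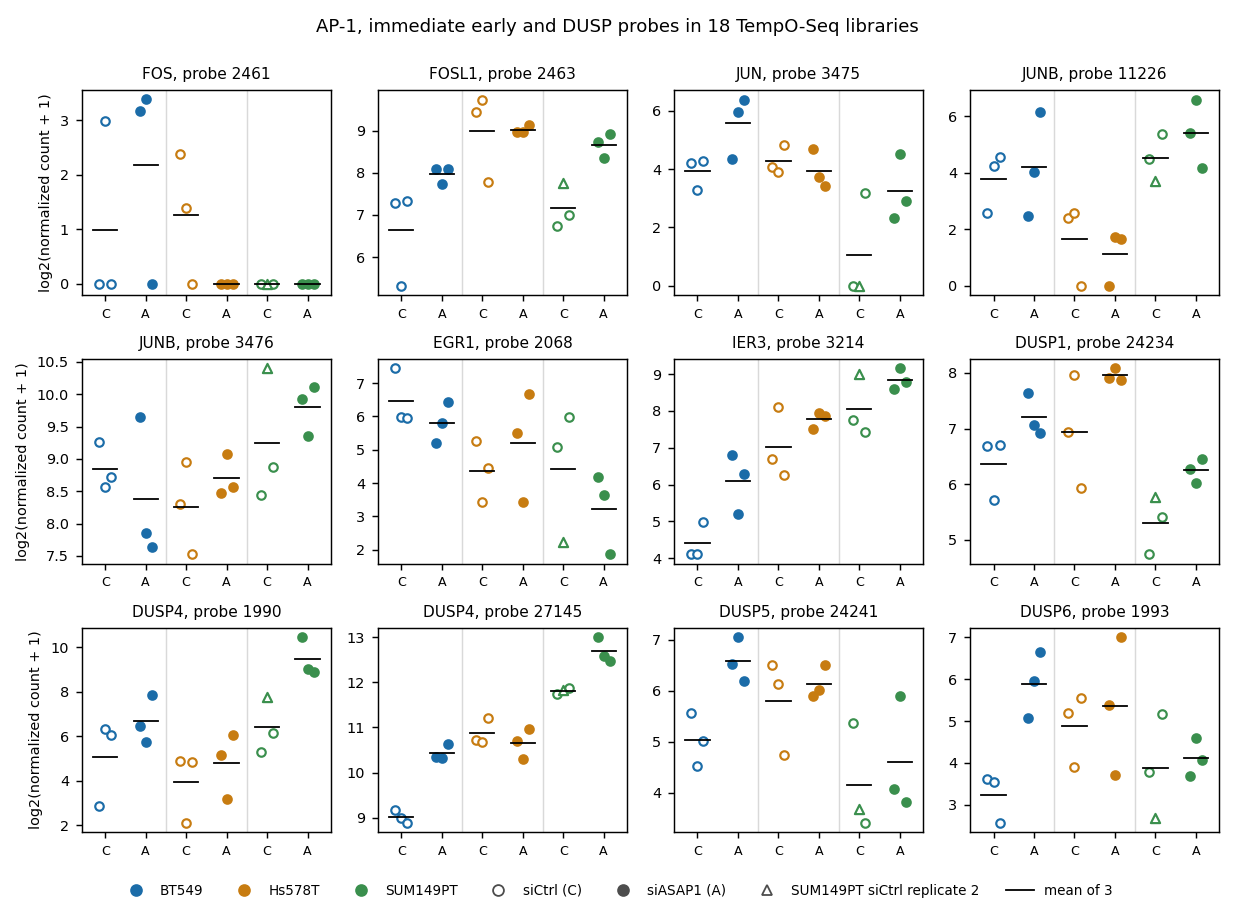
Level of 12 probes of the 10 genes in the 18 libraries, as log2(normalized count + 1) on an axis of its own for each probe. Points are libraries (open for siCtrl, filled for siASAP1, in the order of replicates 1 to 3), lines are means of 3, and the triangle is SUM149PT siCtrl replicate 2. FOSL1, JUN, IER3, DUSP1 (probe 24234), DUSP4 (probe 27145), DUSP5 and DUSP6 show siASAP1 libraries of BT549 above all siCtrl libraries of that line.

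FOS, the founding AP-1 subunit, was barely detected. Its probe had 0 reads in all 6 SUM149PT libraries, where 3 reads, the limit that a count of 0 allows, would be 2.73 to 4.80 normalized counts. In BT549 it was read at 0, 6.92 and 0 in siCtrl and at 8.0, 9.44 and 0 in siASAP1 libraries, and in Hs578T at 4.22, 1.63 and 0 against 0, 0 and 0. With at most 11 reads in a library, FOS stayed below the filter of a mean normalized count of 10, and a difference in it was not detectable with so few reads.

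FOSL1, encoding the FOS-family protein FRA-1, passed the filter in all 3 lines. In BT549 the siCtrl libraries had 155, 39.0 and 161 and the siASAP1 libraries 273, 212 and 272 normalized counts. In SUM149PT they had 106, 216 and 126 against 423, 326 and 482. In both lines every siASAP1 library lay above every siCtrl library, and the highest SUM149PT control, 216, was replicate 2. The Log2 FC was 1.33 ± 0.57 in BT549 and 1.50 ± 0.46 in SUM149PT, and 1.80 ± 0.41 in SUM149PT without siCtrl replicate 2. Without BT549 siCtrl replicate 2, the library at 39.0, the BT549 value was 0.67. In Hs578T, FOSL1 was read at 700.4, 853 and 219.7 in siCtrl and at 503, 498 and 557 in siASAP1 libraries. The siASAP1 values there lay inside the wide range of the controls, with a Log2 FC of 0.03 ± 0.47.

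JUN, the main partner of FOS proteins, was read at low counts. In BT549 the siCtrl libraries had 17.5, 8.80 and 18.2 and the siASAP1 libraries 19.6, 61.4 and 83.0 normalized counts. The groups did not overlap, but siASAP1 replicate 1 lay just above the highest control, and the BT549 call was kept in only 1 of 6 fits that left out a library. In Hs578T the values were 16.0, 13.9 and 27.6 against 24.9, 12.1 and 9.60, which overlapped, with a Log2 FC of -0.33 ± 0.71. In SUM149PT they were 0, 0 and 7.99 against 3.97, 21.8 and 6.57, below the filter, with 0 to 17 reads in a library.

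JUNB, a JUN-family subunit, was read by its probe 3476 at 183 normalized counts or more in every library, with no shift in common. In BT549 the siCtrl libraries had 613, 379.8 and 422 and the siASAP1 libraries 799, 231 and 199 normalized counts. In Hs578T they had 315, 495 and 183 against 355, 537 and 379.6, and in SUM149PT 348, 1353 and 470.0 against 971, 653 and 1110.4. The groups overlapped in all 3 lines, and the value that made them overlap in SUM149PT, 1353, was that of siCtrl replicate 2. The Log2 FC was -0.47 ± 0.54, 0.45 ± 0.39 and 0.56 ± 0.56, and in SUM149PT without that library 1.14 ± 0.38. The second JUNB probe, 11226, was read at no more than 94.9 normalized counts and fell below the filter in Hs578T. Its Log2 FC was 0.42 ± 1.06 in BT549 and 0.87 ± 0.85 in SUM149PT, against 0.46 ± 0.86 without siCtrl replicate 2, each with overlapping groups.

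EGR1, a zinc finger factor and classical serum response gene, was the 1 gene of those that passed the filter with a negative Log2 FC over all 18 libraries. In BT549 it was read at 173, 62.9 and 61.0 in siCtrl and at 35.6, 54.8 and 85.8 in siASAP1 libraries. In Hs578T it was read at 37.1, 9.79 and 20.7 against 44.2, 9.83 and 100.2, and in SUM149PT at 32.9, 3.64 and 62.3 against 17.2, 11.5 and 2.63. The groups overlapped in every line. In SUM149PT they overlapped through siCtrl replicate 2 at 3.64, the lowest control. The Log2 FC was -0.66 ± 0.58, 0.82 ± 0.86 and -1.20 ± 1.26, and -2.30 ± 1.06 in SUM149PT without that library.

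IER3, an immediate early gene whose product acts in survival signalling and on ERK, was higher in siASAP1 libraries of BT549 at 111, 35.9 and 77.6 normalized counts, against 16.2, 16.3 and 30.9 in siCtrl. In Hs578T it was read at 103, 273 and 75.9 in siCtrl and at 181, 245 and 234 in siASAP1 libraries. In SUM149PT it was read at 213, 514 and 173 against 382, 570.5 and 440.2. In each of these latter lines the groups overlapped through 1 control, replicate 2, which held 273 and 514. The Log2 FC was 0.75 ± 0.47 in Hs578T and 0.78 ± 0.51 in SUM149PT, or 1.25 ± 0.39 there without siCtrl replicate 2.

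DUSP1, a nuclear phosphatase of p38, JNK and ERK, had a Log2 FC of similar size in the 3 lines when read by its probe 24234. In BT549 the siCtrl libraries had 102, 51.6 and 103 and the siASAP1 libraries 197, 132 and 119.5 normalized counts. In Hs578T they had 122, 247 and 60.1 against 240.2, 270.0 and 234, and in SUM149PT 25.7, 53.8 and 41.6 against 76.7, 64.1 and 86.7. The groups were apart in BT549 and SUM149PT and overlapped in Hs578T through siCtrl replicate 2 at 247. The Log2 FC was 0.83 ± 0.47, 1.01 ± 0.48 and 0.94 ± 0.56, and 1.18 ± 0.59 in SUM149PT without siCtrl replicate 2, none past the DEG limits. The other DUSP1 probe, 1978, had 8 reads in Hs578T siCtrl replicate 2, 2 in SUM149PT siCtrl replicate 2 and 0 elsewhere, so DUSP1 rests on 1 probe.

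DUSP4, a nuclear phosphatase that is induced by ERK and acts on it, was read by probes with different results. It lies on chromosome 8 (29333064 to 29350668, minus strand) and spans 17.6 kb. In BT549 its probe 27145 had 573, 508 and 470.0 normalized counts in siCtrl and 1293, 1284 and 1579.6 in siASAP1 libraries. In SUM149PT it had 3435, 3634 and 3734 against 8237, 6170.1 and 5697. In both lines the groups were apart, and SUM149PT siCtrl replicate 2 lay between the other controls. The Log2 FC was 0.88 ± 0.33 in SUM149PT and 0.89 ± 0.31 without that library, just under the limit of 1. In Hs578T the probe was read at 1682, 1638 and 2372 in siCtrl and at 1663, 1265 and 2009 in siASAP1 libraries, overlapping groups with a Log2 FC of -0.21 ± 0.27.

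The second DUSP4 probe, 1990, had more spread. In SUM149PT it had 38.6, 219.6 and 70.3 normalized counts in siCtrl and 1412, 524 and 478 in siASAP1 libraries. The groups were apart, with a Log2 FC of 3.05 ± 0.73, or 3.74 ± 0.57 without siCtrl replicate 2, the control at 219.6. In BT549 it was read at 6.24, 79.2 and 64.5 against 86.2, 52.9 and 232, and in Hs578T at 28.7, 3.26 and 27.6 against 35.1, 8.09 and 65.0. Both pairs of groups overlapped, with a Log2 FC of 1.61 ± 0.91 and 0.86 ± 0.99. The BT549 value was 0.51 without siCtrl replicate 1, the library at 6.24, 1.03 without siASAP1 replicate 3, and 2.24 without siCtrl replicate 2, where it passed the DEG limits. The 2 DUSP4 probes thus had the same sign in BT549 and SUM149PT and opposite signs in Hs578T, where neither difference exceeded its SE.

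DUSP5, a nuclear phosphatase specific to ERK, had 46.2, 22.01 and 31.6 normalized counts in siCtrl and 90.7, 132 and 72.1 in siASAP1 libraries of BT549, with no overlap. In Hs578T it had 90.3, 69.4 and 25.6 against 58.9, 63.6 and 89.6, and in SUM149PT 40.0, 11.8 and 9.59 against 15.9, 59.0 and 13.1. These groups overlapped, with a Log2 FC of 0.35 ± 0.52 and 0.45 ± 0.95 (0.22 ± 1.03 without SUM149PT siCtrl replicate 2).

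DUSP6, a cytoplasmic phosphatase specific to ERK and often used as a readout of ERK activity, was the gene with the largest Log2 FC in BT549. There it was read at 11.2, 10.7 and 4.91 in siCtrl and at 32.9, 61.4 and 99.5 in siASAP1 libraries, without overlap. In Hs578T it was read at 35.4, 13.9 and 46.3 against 40.8, 12.1 and 128, and in SUM149PT at 12.9, 5.47 and 35.2 against 11.9, 23.1 and 15.8. The groups overlapped in both, and the Log2 FC was 0.49 ± 0.83 in Hs578T and 0.23 ± 0.96 in SUM149PT. Without SUM149PT siCtrl replicate 2 the SUM149PT value changed sign, to -0.37 ± 0.93.

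**Figure D2:**
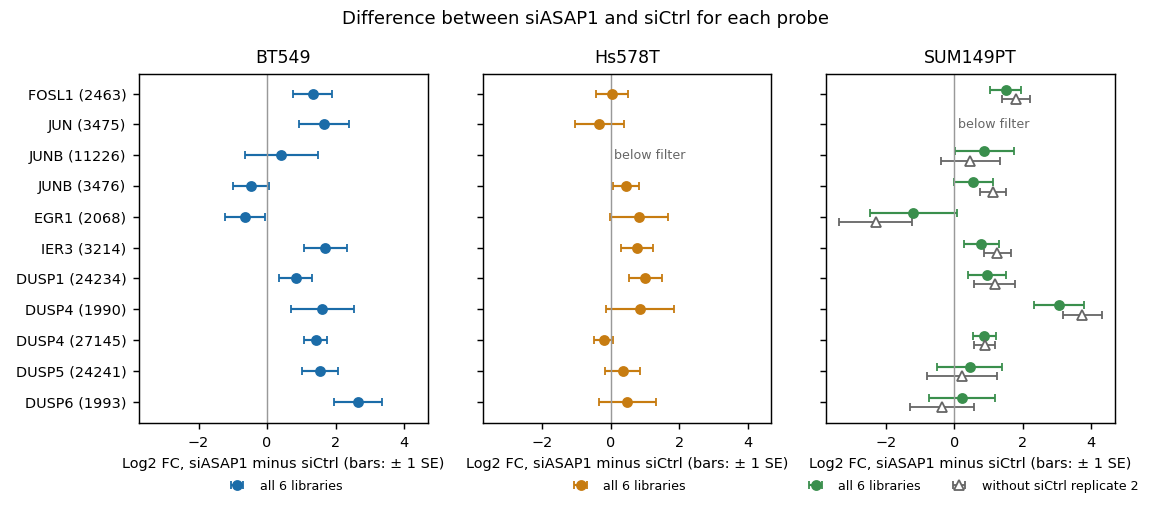
Log2 FC of each probe that passed the filter, siASAP1 minus siCtrl, in the 3 lines, with bars of 1 SE from limma. Open triangles leave out SUM149PT siCtrl replicate 2. In BT549, 9 of 11 probes lie above 0, from -0.66 for EGR1 to 2.66 for DUSP6, and in Hs578T the values lie between -0.33 and 1.01.

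Of the 13 probes, 11 passed the filter in BT549, 10 in Hs578T and 10 in SUM149PT. By the study's limits for differentially expressed genes (DEGs), an absolute Log2 FC over 1 at an unadjusted p under 0.05, 6 of 11 probes in BT549 were higher and 0 lower, where 3.28% of all probes tested were higher and 3.69% lower. The 6 were FOSL1, JUN, IER3, DUSP4 (probe 27145), DUSP5 and DUSP6. The study applied its limits to DESeq2 Wald tests, while the p values here come from limma, so these calls are not the study's own DEGs. In Hs578T 0 of 10 passed in either direction (1.34% of all probes higher and 1.44% lower), with 0 also at an unadjusted p under 0.05 in limma and 0 with voom weights. In SUM149PT 2 of 10 were higher (5.27% of all probes, with 4.29% lower), FOSL1 and DUSP4 (probe 1990). Without siCtrl replicate 2 there were 4, with JUNB (probe 3476) and IER3 added, beside 14.4% of all probes higher and 8.94% lower. After Benjamini-Hochberg adjustment in limma 0 of 9666, 0 of 9500 and 0 of 10078 probes passed in the 3 lines, members included, of which 6, 0 and 3 had an unadjusted p under 0.05. The genes were listed with this contrast known, so nothing is read from these counts. DUSP4 (probe 27145) and DUSP6 passed in every alternative fit of BT549 that tested them, DUSP5 in 12 of 14, FOSL1 in 10 of 14, IER3 in 10 of 13 and JUN in 4 of 13. In SUM149PT, DUSP4 (probe 1990) passed in 14 of 14 and FOSL1 in 12 of 14.

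The siASAP1 libraries lay above all siCtrl libraries for 7 of 11 probes in BT549 (7.35% of all probes). This held for 0 of 10 in Hs578T (6.31%) and for 4 of 10 in SUM149PT (8.87%). They lay below all controls for 0 probes of these genes, against 6.51%, 5.78% and 8.41% of all probes in BT549, Hs578T and SUM149PT. The probes apart in BT549 without passing the DEG limits were those of DUSP1 (probe 24234), and in SUM149PT those of DUSP1 and DUSP4 (probe 27145). A Log2 FC above 0 was found for 9 of 11, 8 of 10 and 9 of 10 probes in these lines, against 49.9%, 50.8% and 53.5% of all probes. Their median Log2 FC was 1.42, 0.47 and 0.83, beside 0.00, 0.01 and 0.09 over all probes tested.

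In a fit of all 18 libraries that adjusts for the cell line, 11 probes passed the filter, and 10 of them had a Log2 FC above 0 (51.7% of all probes). The largest were DUSP4 (probe 1990) at 1.84 ± 0.60, JUN at 1.17 ± 0.54, DUSP6 at 1.12 ± 0.52 and IER3 at 1.08 ± 0.31. FOSL1 followed at 0.95 ± 0.33, DUSP1 at 0.93 ± 0.27, DUSP5 at 0.78 ± 0.39 and DUSP4 (probe 27145) at 0.70 ± 0.21. JUNB was at 0.26 ± 0.57 and 0.18 ± 0.32 by its probes 11226 and 3476, and EGR1 at -0.34 ± 0.57. The median was 0.93 beside 0.02 over all probes. By limma, 0 of the 11 had an adjusted p under 0.05 (1.74% of all probes), 7 had an unadjusted p under 0.05 (15.8% of all probes), and with voom weights the numbers were 0 and 6. This is the contrast that the list was drawn up with, so nothing is read from these counts either. Leaving out Hs578T siCtrl replicate 2 gave 2 adjusted calls, DUSP1 and IER3 (1.55% of all probes in that fit), and leaving out SUM149PT siCtrl replicate 2 gave 1, IER3 (1.53%). Hs578T siCtrl replicate 3 or siASAP1 replicate 2, when left out, each gave 1, DUSP4 (probe 27145), beside 1.85% and 1.97% of all probes.

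A difference between the lines in the response to siASAP1 was tested with an interaction term. By limma, 1 of 10475 probes (0.00955%) had an adjusted interaction p under 0.05, which reads SNAI2 (adjusted p = 0.0065). None of the 11 probes of these genes did, with 1 at an unadjusted p under 0.05 (6.22% of all probes) and, with voom weights, 0 and 1. The term rests on the same siASAP1 minus siCtrl values, so nothing is read from it about these genes, and whether their calls in BT549 and lack of calls in Hs578T mark a difference between the lines was not tested independently.

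The levels in siCtrl cells were also compared between the lines. The same siCtrl libraries enter the contrast that the list was drawn up with, so these comparisons are not independent of that choice. A low siCtrl value in a line raises the siASAP1 minus siCtrl difference there. FOSL1, IER3 and DUSP4 (probe 27145), called lower in BT549 than in Hs578T, were also among the probes called higher with siASAP1 in BT549. The differences and adjusted p values are therefore given as a description. DUSP4 (probe 27145) differed in all 3 comparisons. Its mean normalized count was 517 ± 51.9 (SD, n = 3) in BT549, 1897 ± 412 in Hs578T and 3601 ± 152 in SUM149PT, an order in which every neighbour was apart. It was lower in BT549 than in Hs578T, with a log2 difference of -1.86 ± 0.28 (SE, limma, adjusted p = 0.0013), higher in SUM149PT than in BT549 by 2.80 ± 0.28 (adjusted p = 7.3e-05) and higher in SUM149PT than in Hs578T by 0.94 ± 0.28 (adjusted p = 0.038). The last of these had an adjusted p of 0.0218 to 0.146 over the alternatives and kept under 0.05 in 8 of 16, while the other differences held in 16 of 16 each.

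IER3 was lower in BT549 (21.1 ± 8.42 normalized counts, SD, n = 3) than in Hs578T (150.4 ± 107) and SUM149PT (299.9 ± 186). The log2 difference was -2.61 ± 0.62 (SE) for BT549 minus Hs578T (limma, adjusted p = 0.0196, from 0.0086 to 0.0857 over the alternatives and under 0.05 in 12 of 16) and 3.66 ± 0.62 for SUM149PT minus BT549 (adjusted p = 0.0023, under 0.05 in all 16 alternatives). Hs578T and SUM149PT overlapped and did not differ beyond their spread (adjusted p = 0.280). FOSL1 was lower in BT549 (118 ± 68.6) than in Hs578T (591 ± 331), with a log2 difference of -2.35 ± 0.68 (adjusted p = 0.0472), a call kept in 5 of 16 alternatives with adjusted p values from 0.0221 to 0.1797. SUM149PT (149 ± 58.6) lay beside BT549 (adjusted p = 0.667) and below every Hs578T library, with a log2 difference of -1.83 ± 0.68 (adjusted p = 0.0906, or 0.0337 without Hs578T siCtrl replicate 3).

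JUN and JUNB differed at low counts. JUN was lower in SUM149PT (2.66 ± 4.61 normalized counts, SD, n = 3) than in Hs578T (19.2 ± 7.37), with a log2 difference of -3.22 ± 0.91 (SE) (limma, adjusted p = 0.0315, from 0.0028 to 0.1063 over the alternatives and under 0.05 in 8 of 15), and without SUM149PT siCtrl replicate 2 the adjusted p was 0.0542. Against BT549 (14.8 ± 5.24) it was also lower in every library, with a log2 difference of -2.87 ± 0.91 that missed the threshold (adjusted p = 0.0549, under 0.05 in 3 of 15 alternatives and 0.0348 with a replicate block). The JUNB probe 11226 was higher in SUM149PT (24.4 ± 14.3) than in Hs578T (3.04 ± 2.65) by 2.86 ± 0.90 (adjusted p = 0.0499, kept in 2 of 15 alternatives), which was not the case for the deeper JUNB probe 3476 (0.98 ± 0.55, adjusted p = 0.249). EGR1 was higher in BT549 (99.1 ± 64.4) than in Hs578T (22.5 ± 13.8) in every library, by 2.09 ± 0.97, with an adjusted p of 0.210 (0.0485 without SUM149PT siCtrl replicate 2). DUSP1 lay lower in every SUM149PT than in every Hs578T library, by a log2 difference of -1.64 ± 0.61 (adjusted p = 0.0908, or 0.0351 without Hs578T siCtrl replicate 3). DUSP5, DUSP6 and the DUSP4 probe 1990 had no adjusted p under 0.05 in any of the comparisons or their alternatives.

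In all, 3 of the 11 probes had an adjusted p under 0.05 between BT549 and Hs578T, where 13.9% of all probes did. Between SUM149PT and BT549 there were 2 (18.2% of all probes), and between SUM149PT and Hs578T 3 (20.2%). Without SUM149PT siCtrl replicate 2 4, 2 and 2 of the 11 probes had an adjusted p under 0.05, beside 22.4%, 34.2% and 31.7% of all probes. Nothing is read from these counts, since the siCtrl values also entered the contrast behind the list.

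The replicates varied by gene. The pooled SD of log2 values within groups was 0.24 for DUSP4 (probe 27145), 0.55 for DUSP1, 0.67 for IER3, 0.69 for FOSL1 and 0.73 for JUNB (probe 3476), against a median of 0.81 over all probes. It was 0.80 for DUSP5, 1.02 for DUSP6, 1.06 for JUN, 1.27 for JUNB (probe 11226), 1.29 for EGR1 and 1.41 for DUSP4 (probe 1990). The 2 DUSP4 probes thus stood at the ends of the order, and the deeper one carried the smallest error.

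The probes most like each gene were found by Pearson's r over the 18 log2 values, after each line's mean was removed, which leaves the siASAP1 effect and the noise that libraries share. FOSL1 and DUSP1 were among each other's closest (r = 0.83). SLC30A1, which encodes a zinc exporter, was close to DUSP1 (r = 0.89) and to IER3 (0.79), which also lay near the growth factor gene BMP2 (0.81). JUN lay nearest CTGF, a secreted matrix protein gene, at 0.90 and the stress gene GADD45A at 0.89. DUSP4 (probe 27145) lay nearest the NF-kappaB subunit gene RELB at 0.90 and the kinase subunit gene PIK3CD at 0.89, and FOSL1 also near the apoptosis inhibitor gene BIRC3 at 0.79. DUSP6 lay nearest CEMIP (0.93) and SMIM15 (0.88), DUSP5 nearest SEMA3C (0.89) and RHPN2 (0.89), and EGR1 nearest MYPOP (0.86) and RBM34 (0.85). JUNB (probe 3476) lay nearest COG6 (0.95) and VGLL4 (0.93), JUNB (probe 11226) nearest RHNO1 (0.85) and TP53I3 (0.83), and DUSP4 (probe 1990) nearest NXPE3 (0.93) and DZIP1L (0.91). These are descriptions of 18 libraries that share depth and siRNA.

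The other genes of the pathway were taken from lists of AP-1 family genes, immediate early genes, MAP kinase phosphatases, atypical dual-specificity phosphatases, ERK output and feedback genes, and genes of the RAS-MAP kinase cascade and serum response. They held 98 genes and 112 probes, of which 70 passed the filter in BT549, 67 in Hs578T and 67 in SUM149PT. These lists too were chosen with earlier results of these data known. Their counts, medians and adjusted p values are therefore a description and not independent support. By the DEG limits 9 of 70 were higher and 1 lower in BT549 (12.9% and 1.43%), 1 higher and 1 lower of 67 in Hs578T (1.49% each) and 8 higher and 2 lower of 67 in SUM149PT (11.9% and 2.99%), beside the background shares given above. After adjustment in limma 0 passed in any line, with 13, 3 and 10 at an unadjusted p under 0.05. With voom weights, the numbers past the DEG limits were 10, 2 and 9. Without SUM149PT siCtrl replicate 2, 21 passed in SUM149PT in place of 10.

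Over the 18 libraries 1 of the 70 probes passed the adjusted test (1.74% of all probes). It reads NFKBIZ, encoding an inducible nuclear IkappaB protein, which rose after siASAP1 by 1.12 ± 0.22 (SE) on the log2 scale (limma, adjusted p = 0.0114, from 0.0076 to 0.0598 over the alternatives). Its siCtrl libraries had 708 to 1419.9 normalized counts in BT549, 162 to 337 in Hs578T and 489 to 692 in SUM149PT. The siASAP1 libraries had 1616 to 2109.7, 376 to 868 and 1239.7 to 2154, so in each line every siASAP1 library lay above every control. In a fit blocked on the replicate number its adjusted p was 0.0598. NFKBIZ comes from a list chosen with earlier results of these data known, so its values are given as a description.

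**Figure D3:**
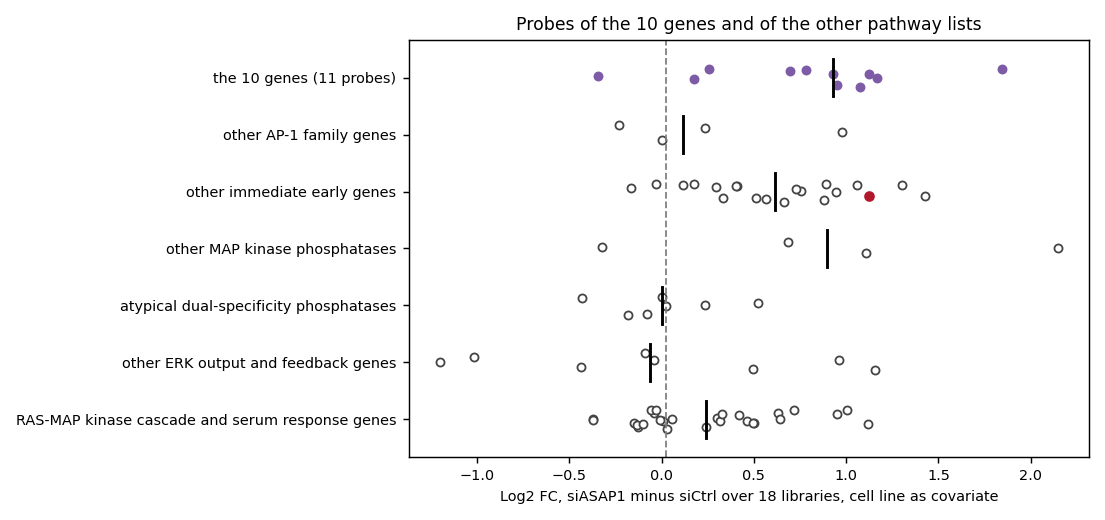
Log2 FC over the 18 libraries (siASAP1 minus siCtrl, adjusted for cell line) of the probes of the 10 genes (filled purple) and of the other lists (open). Each point is a probe, short lines are list medians, the dashed line is the median of all probes tested (0.02) and the filled red point is NFKBIZ, the 1 listed probe with an adjusted p under 0.05. The medians lie at 0.93 for the 10 genes, 0.90 for other MAP kinase phosphatases and 0.62 for other immediate early genes, and between -0.06 and 0.24 for the remaining lists. The 10 genes and the lists were chosen with earlier results of these data known.

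Of the other immediate early genes, 20 probes were tested over the 18 libraries and 18 had a Log2 FC above 0, with a median of 0.62 beside 0.02 over all probes. The DEG limits were passed by 5 of 19 probes in BT549, by 1 of 19 in Hs578T and by 4 of 18 in SUM149PT, all higher. They are named here because they passed. In BT549 they were CYR61 (1.10), IER2 (1.18), KLF4 (1.28), KLF2 (1.42) and IER5 (1.54), in Hs578T NFKBIZ (1.16), and in SUM149PT GADD45B by its probe 2570 (1.44), NFKBIZ (1.45), ZFP36L1 (2.88) and PLK3 (3.16), as Log2 FC. Without SUM149PT siCtrl replicate 2 these last were 1.65, 1.39, 4.13 and 3.89. No gene but NFKBIZ was in more than 1 of these lists.

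Of the other MAP kinase phosphatases, DUSP10, which acts on p38 and JNK, stood highest without passing the adjusted test (2.15 ± 0.58 over 18 libraries, limma adjusted p = 0.0649, from 0.0247 to 0.1504 over the alternatives). Its siASAP1 libraries had 47.1 to 64.2 normalized counts in BT549 and 279 to 531 in SUM149PT, against 0 to 17.6 and 21.5 to 57.5 in siCtrl, apart in both. In Hs578T the values overlapped, at 17.9 to 46.5 against 13.8 to 35.9. DUSP10 passed the DEG limits in BT549 (3.03 ± 1.09) and SUM149PT (3.30 ± 0.55, or 3.41 without siCtrl replicate 2), as did DUSP16, another JNK phosphatase, in SUM149PT (2.05 ± 0.55, or 1.92 without that library). DUSP16 went the other way in BT549 (-1.32 ± 0.69, overlapping groups) and was at 1.32 ± 0.78 in Hs578T, with an adjusted interaction p of 0.388 in limma. Over the 18 libraries DUSP8 was at 1.11 ± 0.59, DUSP16 at 0.69 ± 0.48 and DUSP7 at -0.32 ± 0.23. DUSP9, tested in BT549 only, was at -1.24 ± 1.35 there. The list had 3 of 4 probes above 0 over the 18 libraries.

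The remaining lists had medians between -0.06 and 0.24. Of the other AP-1 family genes 4 probes were tested and 0 passed, with FOSL2 at 0.98 ± 0.47 (adjusted p = 0.315 in limma) and JDP2 at 0.23 ± 0.31. Of the atypical phosphatases 7 were tested, with DUSP11 at 0.52 ± 0.28 and DUSP14 at -0.43 ± 0.38, and DUSP14 was lower by the DEG limits in BT549 (-1.32 ± 0.53). Of the ERK output and feedback genes 8 were tested and 3 lay above 0. Among them SPRY1, an inhibitor of receptor tyrosine kinase signalling, was at -1.20 ± 0.41 (adjusted p = 0.146 in limma) and SPRY4, another inhibitor, at 1.15 ± 0.54. The ETS factor gene ETV5 was higher by the DEG limits in BT549 (1.35 ± 0.47) and lower in SUM149PT (-1.31 ± 0.50, or -1.32 without siCtrl replicate 2), with an adjusted interaction p of 0.199 in limma. EPHA2 was higher in BT549 (2.66 ± 0.85), ETV4 lower in Hs578T (-3.27 ± 1.35) and SPRY1 lower in SUM149PT (-2.24 ± 0.93, or -2.64 without that library). Of the cascade and serum response genes 27 probes were tested and 17 lay above 0. Those with the smallest p were ELK3 by its probe 13594, encoding a serum response factor partner, at 0.95 ± 0.28 (adjusted p = 0.0866 in limma) and KSR1, a scaffold of the cascade, at 1.12 ± 0.39 (adjusted p = 0.149). ELK3 passed the DEG limits in BT549 (1.19 ± 0.43) and SUM149PT (1.16 ± 0.43, or 0.76 without siCtrl replicate 2), and RPS6KA3 in SUM149PT (1.39 ± 0.52, or 1.87 without it).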

How the data were processed

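The authors counted reads per TempO-Seq probe, and the deposited values are log2 of the count divided by a DESeq2 size factor, plus 1. The submitters' processing notes also name bcl2fastq and Bowtie, and the genome build is not given in the sources used here. Undoing the log2 gave whole reads for 100% of values (tolerance 0.01). Samples were grouped by their labels. limma 3.58.1 (lmFit, eBayes with trend) in R 4.3.3 was run on the deposited log2 values of probes whose normalized count averaged 10 or more, with Benjamini-Hochberg adjustment over all probes tested. Fits were also run on simulated counts with the same spread setting for all probes and no odd library. That check does not cover the replicate spread of these data. Figures used Python 3.11.15 and matplotlib 3.10.9. Members and lists were chosen with earlier results of these data known. Genes named are the members, ASAP1, the listed genes past the adjusted test over 18 libraries or else the 2 with the smallest p, genes past the interaction test, and the 2 probes most like each member. Other listed genes past the DEG limits are named after their values were seen. Intervals of counts were not used, and the limit for 0 reads covers counting error only. Alternatives were TMM or total scaling, no filter or a minimum of 50, a pseudocount of 0.1, voom weights, a single fit, adjusted calls, a replicate block and each library left out. Leaving out SUM149PT siCtrl replicate 2 in the siCtrl comparisons was also chosen after seeing the data.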

Additional observations from a re-analysis of the deposited data

How the results depend on the processing

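Numbers of member probes past the DEG limits were 6 in BT549, 0 in Hs578T and 2 in SUM149PT, and of other pathway probes 10, 2 and 10. A minimum of 50 gave 3 members and 6 pathway probes in BT549 and 1 pathway probe in Hs578T, with fewer probes tested. Adjusted calls gave 0 for members in BT549 and SUM149PT and 0 for pathway probes in all 3 lines. Scaling by library totals gave 1 member (DUSP1) and 4 pathway probes in Hs578T and 2 members (DUSP1 and DUSP4 probe 27145) over the 18 libraries, where 0 passed. A pseudocount of 0.1 gave 1 pathway probe in Hs578T. Over the 18 libraries, where 1 pathway probe passed, a minimum of 50 gave 2 and voom weights 2. Between siCtrl SUM149PT and Hs578T, where 3 members passed, no filter gave 0 and a minimum of 50 gave 1. Beyond fewer or more probes tested, the cause was not tested.

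In fits with a replicate block, 5 members passed in BT549, where JUN was lost (6.11% of all probes), 1 member (DUSP1) and 5 pathway probes in Hs578T (4.58%), 1 member (DUSP4 probe 1990) and 5 pathway probes in SUM149PT (3.48%), 0 pathway probes over the 18 libraries, and 1 member between siCtrl SUM149PT and Hs578T. The numbers do not mark a shared animal, day or batch in the labels, and deviations of same-numbered libraries from their group means correlated at -0.18, -0.35 and 0.11 in BT549, 0.10, 0.34 and 0.35 in Hs578T and -0.32, -0.65 and -0.34 in SUM149PT, so the block is only an alternative. In Hs578T each siCtrl library correlated best with the siASAP1 library of its own number, and whether these were true pairs is not in the labels.

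With each library left out in turn, members past the DEG limits were 3 to 5 in BT549, beside 3.44% to 22.5% of all probes (3 without siCtrl replicate 2, siASAP1 replicate 2 or siASAP1 replicate 3, and 5 without siASAP1 replicate 1, at 22.5%, of which JUNB probe 3476 was lower), 0 to 2 in Hs578T, beside 1.66% to 6.67% (2 without siCtrl replicate 2, 1 without siASAP1 replicate 2) and 1 to 4 in SUM149PT, beside 4.95% to 23.4% (1 without siCtrl replicate 1, 4 without siCtrl replicate 2). For pathway probes the range was 3 to 25 in BT549 (25 without siASAP1 replicate 1, 3 without siASAP1 replicate 3, and 5 or 6 without siCtrl replicate 2, siCtrl replicate 3 or siASAP1 replicate 2). It was 0 to 7 in Hs578T (0 without siCtrl replicate 1, 1 without siASAP1 replicate 1 or 3, and 6 or 7 without siASAP1 replicate 2 or siCtrl replicate 3). In SUM149PT it was 4 to 21 (21 without siCtrl replicate 2, and 4 or 5 without siCtrl replicate 1 or 3 or siASAP1 replicate 1 or 3). Over the 18 libraries members ranged from 0 to 2 and pathway probes from 1 to 2, beside 0.942% to 1.97% of all probes. Members differing between siCtrl BT549 and Hs578T ranged from 1 to 4 (1 without replicate 1 or 2 of either line), between SUM149PT and BT549 from 2 to 3, and between SUM149PT and Hs578T from 0 to 3 (0 without BT549 replicate 3, Hs578T replicate 1 or 2 or SUM149PT replicate 1, and 1 without BT549 replicate 2 or SUM149PT replicate 3). DUSP4 (probe 27145) and DUSP6 passed the DEG limits in BT549, and DUSP4 (probe 1990) in SUM149PT, whichever library was left out. The interaction test gave 0 of these probes under every alternative run.

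Of 422 Log2 FC values of members under alternatives, 421 moved by less than the replicate SD and 11 had another sign, none of them among called values. DUSP4 (probe 27145) in SUM149PT moved to 1.09 with scaling by library totals. That scaling shifted the median Log2 FC of all probes to 0.12 in Hs578T, 0.30 in SUM149PT and 0.15 over the 18 libraries, and changed the share of DEGs that were higher from 48.1% to 70.3% (Hs578T), from 55.1% to 74.0% (SUM149PT) and from 55.5% to 73.2% (18 libraries). FOS and the second DUSP1 probe are limited by depth.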
